A study of Drosophila melanogaster with 6 samples.

Results

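Zona pellucida (ZP) domain genes were described in 6 RNA-seq libraries of *Drosophila melanogaster* wing imaginal discs, the tissue of the fly larva from which the wing develops. The 10 genes *tyn*, *nyo*, *neo*, *mey*, *dy*, *dyl*, *m*, *pio*, *dp* and *cyr* were taken by FlyBase symbol from the 16455 genes listed in every library, and all 10 were found. Membership of the family was taken from the gene names and was not checked by sequence here. *dp* (dumpy) has the symbol dpy in the annotation used here (FBgn0053196). A gene was tested when it reached 1 TPM (transcript abundance scaled by transcript length and by library) in at least 1 library. This held for 8051 genes of the files and for 8 of the 10 ZP domain genes, but not for *dyl* and *cyr*. The group was set up around *tyn*, because it lies 17.6 kb downstream of the lncRNA gene *CR40469*, the gene that the study deleted.

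The libraries fall into 3 labelled CR40469-KO and 3 labelled control. Discs of all 6 came from last-instar larvae that carried salE/Pv-LHG, a driver active in the central part of the wing disc, with tub-Gal80TS and lexO-rpr, and in which the pro-apoptotic gene *rpr* had been expressed for 16 h. The CR40469-KO animals were in addition homozygous for a deletion of the *CR40469* locus in which an mCherry cassette replaces it. Both labels therefore stand for damaged tissue, and each library mixes induced and uninduced regions of the disc. In such bulk samples, fewer cells of a type and less RNA per cell cannot be told apart. The labels do not say whether replicates came from separate crosses, so p-values measure the spread between these libraries only.

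ZP domain proteins are secreted or membrane-anchored proteins that polymerise into the apical extracellular matrix, the layer between an epithelium and its cuticle. In flies they are known for shaping the apical cell surface, for example in embryonic denticles, wing hairs and tracheal tubes, and for tethering epithelia to cuticle. Several of them are known targets of the transcription factor Shavenbaby, encoded by *ovo*, and many are switched on when cuticle is made.

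The labels were checked first, as they decide every direction given here. *CR40469* (FBgn0058469) was at 535.93, 389.21 and 293.78 TPM in the libraries labelled CR40469-KO, against 99.61, 46.44 and 82.52 TPM in those labelled control. The deleted gene thus goes against the labels, so libraries are named by their label throughout. Were the labels exchanged, every sign given here would turn. Neither label shows the gene absent, since its lowest value was 46.44 TPM. The transcript of *CR40469* is nearly identical to that of *CR34335*. The study's methods state, for its damage time course, that reads of both were told apart, and this was not tested for the present libraries. *CR34335* was at 1938.29, 1928.63 and 1902.09 TPM against 3521.64, 2442.97 and 3201.91 TPM. *rpr* was at 144.06, 189.81 and 164.11 TPM against 132.26, 122.67 and 143.52 TPM. Its labels did not overlap, by 144.06 against 143.52 TPM at the closest, where 7.9% of all tested genes were higher in every library labelled CR40469-KO. *rpr* was not called in the fit given below (limma adjusted p = 0.818). Genes that reached 1 TPM numbered 7695 to 7779 per library labelled CR40469-KO and 7683 to 7690 per library labelled control. The values hold no counts, and the mapped read numbers that the study gives in its supplement were not used here.

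Levels of the 10 genes differed widely. *pio* was the most abundant, with a mean over 6 libraries of 302 TPM, above 95% of the tested genes. It was followed by *neo* with 97.3 TPM, *nyo* with 44.2 TPM, *mey* with 38.9 TPM and *tyn* with 30.8 TPM. These 5 genes lay above between 53.6% and 95% of the tested genes. *dp*, *m* and *dy* were low, with means of 8.85, 3.31 and 2.56 TPM. *cyr* and *dyl* were near 0, with means of 0.143 and 0.0417 TPM.

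Within each library, *pio* was between 2.94 and 3.45 times as abundant as *neo*, and *neo* was between 1.65 and 2.58 times as abundant as *nyo*. The order of *nyo* and *mey* was not fixed, as *nyo* was above *mey* in 4 of the 6 libraries. *mey* was above *tyn* in all 6, by a ratio between 1.07 and 1.48. The order of *dp* and *m*, and that of *m* and *dy*, likewise held in only 4 of the 6 libraries. The summed TPM of the 10 genes was between 565 and 598 in the libraries labelled CR40469-KO and between 346 and 640 in those labelled control, and *pio* alone made up between 54.5% and 58.1% of that sum.

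**Figure D1:**
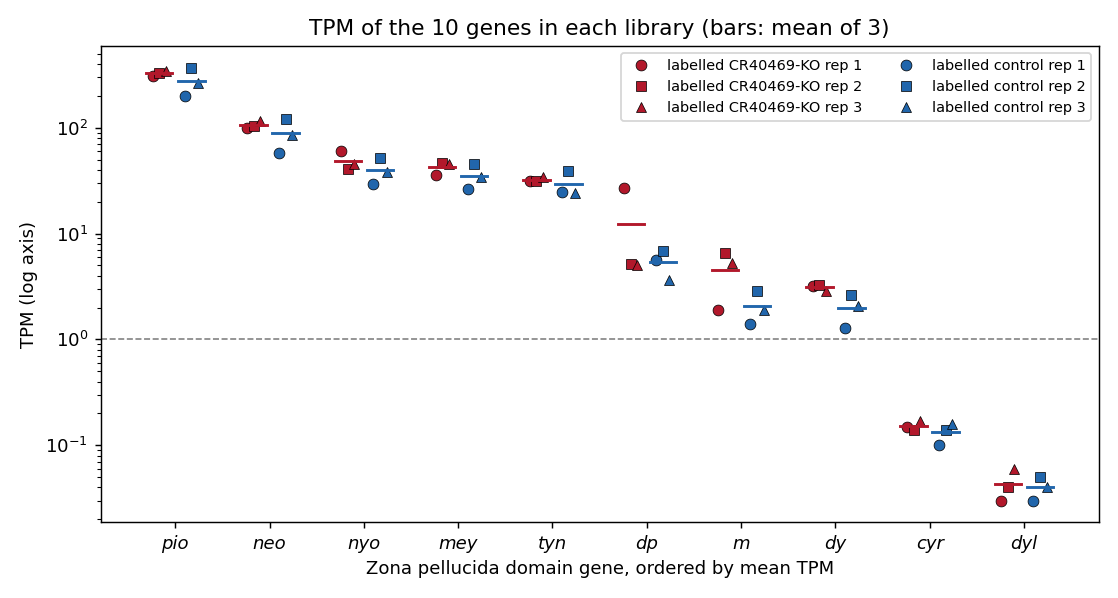
TPM of the 10 ZP domain genes on a log axis, with libraries labelled CR40469-KO in red left of those labelled control in blue, 1 symbol per library and a bar at the mean of 3. The dashed line marks 1 TPM, and only *cyr* and *dyl* stay under it in all 6 libraries; *dp* has 1 library, CR40469-KO replicate 1 with 26.71 TPM, far above its other 5.

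Across labels, the question was whether these genes, and *tyn* in particular, differed between discs labelled CR40469-KO and control after damage. None of the 8 tested genes was called by limma at an adjusted p (Benjamini-Hochberg over all tested genes) under 0.05 and an absolute fold change over 1.7, where 18 of the 8051 tested genes, 0.224%, were called in either direction. All 8 had the same adjusted p of 0.818. At an unadjusted p under 0.05, 1 of the 8 (*dy*) was higher in the libraries labelled CR40469-KO, where 3.03% of all tested genes were. The log2 fold changes (log2FC, labelled CR40469-KO over labelled control on log2(TPM + 1)) of the 8 genes were all positive, from 0.16 for *tyn* to 0.78 for *m*, with a median of 0.31. Of all tested genes, 74.9% had a positive value and the median was 0.13, so that 0.13 rather than 0 marks the middle of all genes in this comparison. With each library divided by its median ratio, that median was 0.0014 and the 8 genes lay between 0.037 for *tyn* and 0.70 for *m*. The labels did not overlap for 1 of the 8, again *dy*, where 7.9% of all tested genes were higher in every library labelled CR40469-KO.

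**Figure D2:**
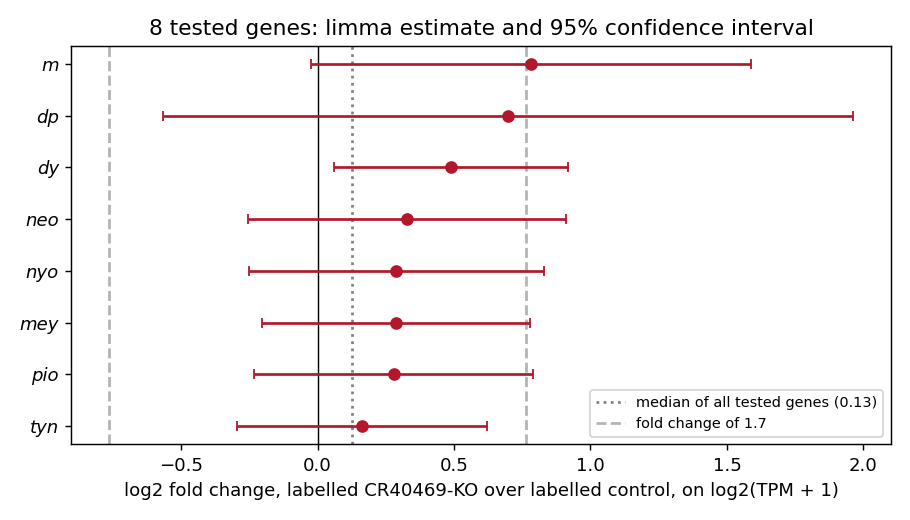
Log2 fold change of the 8 tested genes, labelled CR40469-KO over labelled control, on log2(TPM + 1), with limma's 95% confidence interval (n = 3 per label). All 8 estimates lie right of the dotted line, the median of all tested genes at 0.13, and each interval except that of *dy* includes 0; dashed lines mark a fold change of 1.7.

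*tyn* (trynity, FBgn0284435) lies on the plus strand of chromosome X of dm6, from 140318 to 200663, and encodes a ZP domain protein known for the epidermal barrier and the maturation of the respiratory tubes. It was at 31.64, 31.24 and 33.95 TPM in the libraries labelled CR40469-KO, against 24.87, 39.12 and 24.23 TPM in those labelled control. The 3 libraries labelled CR40469-KO lay close together and within the range of the control libraries, of which replicate 2 was the highest of all 6. The log2FC was 0.16, with a standard error of 0.20 and a 95% confidence interval from -0.29 to 0.62. Taken as a fold on the TPM + 1 scale, the interval runs from 0.82 to 1.54, so that a change past the 1.7-fold threshold in either direction lies outside it. The difference in mean TPM gave p = 0.6 in a two-sided exact permutation test, in which 3 against 3 libraries cannot give less than 0.1. Without control replicate 2, the log2FC of *tyn* was 0.38 (95% confidence interval 0.07 to 0.69) and the labels did not overlap. In that fit the unadjusted p was 0.0222 and the adjusted p 0.376 in limma. Without control replicate 1 the log2FC of *tyn* was 0.064, where the median of all tested genes was 0.066. Without control replicate 3 that of *tyn* was 0.046.

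Antisense genes that overlap *tyn* were examined because the use of strand in counting is not given in the sources used here. The antisense lncRNA *CR45473* shares 362 bp of exon with *tyn*, 6.36% of its exonic sequence. It was at 16.31, 16.48 and 13.96 TPM in the libraries labelled CR40469-KO, against 25.62, 14.88 and 19.8 TPM in those labelled control. Its log2FC was -0.32 (standard error 0.20, limma adjusted p = 0.818). It was highest in control replicate 1 and low in control replicate 2, where *tyn* was at 24.87 and 39.12 TPM. If strand was not used, reads of this shared stretch cannot be assigned to 1 gene with certainty. *CG17707*, antisense within *tyn*, shares 635 bp but never exceeded 0.06 TPM.

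The 3 tested genes whose pattern over the 6 libraries was most like that of *tyn* were *CG31121*, *CenG1A* and *CG33144*. Likeness was measured as the root mean square difference of log2(TPM + 1) after each gene's own mean had been taken away, and was 0.0591, 0.0601 and 0.0612 for them, where the median over 8050 genes was 0.268. All 3 are on other chromosomes than *tyn*. *CG31121*, the closest, was at 45.58, 43.7 and 47.74 TPM in the libraries labelled CR40469-KO and 32.89, 52.7 and 36.48 TPM in those labelled control. Of the other ZP domain genes, *pio* was the most like *tyn* (0.145, rank 374) and *dp* the least (0.800, rank 7978).

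*neo* (neyo), *nyo* (nyobe) and *mey* (morpheyus) encode ZP domain proteins which, with Tyn, build the apical matrix of embryonic denticles, each in its own zone of the cell extension. All 3 lie on chromosome 3R, with *mey* and *nyo* 36.0 kb apart on the same strand. *neo* (FBgn0039704) was at 98.88, 103.63 and 116.76 TPM in the libraries labelled CR40469-KO, against 57.65, 120.88 and 86.17 TPM in those labelled control. The highest value was that of a control library, and the lowest was that of control replicate 1. Its log2FC of 0.33 had a 95% confidence interval from -0.26 to 0.91.

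*nyo* (FBgn0039852) was at 59.88, 40.37 and 45.2 TPM in the libraries labelled CR40469-KO, against 29.66, 52.02 and 38.26 TPM in those labelled control, with a log2FC of 0.29 (95% confidence interval -0.25 to 0.83). Its highest value came from CR40469-KO replicate 1, and the other 2 libraries of that label fell inside the control range. *mey* (FBgn0039851) was at 35.71, 46.35 and 45.72 TPM in the libraries labelled CR40469-KO, against 26.57, 45.32 and 34 TPM in those labelled control, and had a log2FC of 0.29 (95% confidence interval -0.20 to 0.78). The labels overlapped for both genes. The ratio of *nyo* to *mey* was 1.68 in CR40469-KO replicate 1 and 0.871 and 0.989 in replicates 2 and 3, while it lay between 1.12 and 1.15 in the control libraries. This ratio was thus above the control range in CR40469-KO replicate 1 and below it in replicates 2 and 3. In CR40469-KO replicate 1, *nyo* was also high against genes that are not its neighbours. Its ratio to *tyn* was 1.89 there, against 1.19 to 1.58 in the control libraries. The ratio of *neo* to *nyo* was 1.65 there, against 1.94 to 2.32. When replicate 1 of both labels was left out, an alternative added after the values were seen, the log2FC of *nyo* was -0.062. The median of all tested genes was 0.0037 in that fit.

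*m* (miniature) and *dy* (dusky) are known for wing size: mutants of either have small wings made of smaller cells. They are neighbours on chromosome X, on opposite strands with their 3′ ends facing, and the annotation leaves 260 bp between them. *dy* (FBgn0004511) was at 3.19, 3.3 and 2.89 TPM in the libraries labelled CR40469-KO, against 1.29, 2.63 and 2.05 TPM in those labelled control. It is the one gene of the group whose labels did not overlap, by 2.89 against 2.63 TPM at the closest. Its log2FC was 0.49 (standard error 0.19, 95% confidence interval 0.06 to 0.92, unadjusted p = 0.0306 and adjusted p = 0.818 in limma). The exact permutation test gave its smallest possible p, 0.1. Without control replicate 1, the log2FC was 0.31 (95% confidence interval -0.07 to 0.69, unadjusted p = 0.0928 in limma). Leaving out CR40469-KO replicate 2 or 3 or control replicate 3 also took the unadjusted p past 0.05, to 0.0822, 0.0530 and 0.0624. The gene was low in every library, so that the fold on the TPM + 1 scale, 1.40, understates the ratio of the mean TPM, 1.57.

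*m* (FBgn0002577) was at 1.9, 6.58 and 5.22 TPM in the libraries labelled CR40469-KO, against 1.41, 2.84 and 1.9 TPM in those labelled control. Replicates 2 and 3 of CR40469-KO were above all control libraries, and replicate 1 was at the same value as control replicate 3. The log2FC was 0.78, the largest of the group, with a 95% confidence interval from -0.02 to 1.59 and an unadjusted p of 0.0557 in limma. Without CR40469-KO replicate 1 it was 1.2 with an adjusted p of 0.0831, so *m* was not called in that fit either. Without CR40469-KO replicate 2 it was 0.50 (unadjusted p = 0.166 in limma), and without control replicate 1 it was 0.63. With the replicate number as a block, *m* had an unadjusted p of 0.00624 and an adjusted p of 0.474 in limma. The ratio of *m* to *dy* was 0.596 in CR40469-KO replicate 1 and 1.99 and 1.81 in replicates 2 and 3, against 0.927 to 1.09 in the control libraries. The neighbouring genes were thus near equal in all control libraries and unequal, in either direction, in those labelled CR40469-KO.

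Genes of the ecdysone cascade, the hormone response that times metamorphosis, also varied between replicates of a label. *Hr46* (Hr3 in the annotation), an ecdysone-induced nuclear receptor, was at 7.7, 35.43 and 30.37 TPM in the libraries labelled CR40469-KO, against 10.51, 16.93 and 9.78 TPM in those labelled control. As with *m*, replicates 2 and 3 of CR40469-KO were the highest. Among the other listed genes of this response, *ImpE3* shared this order. *EcR*, *usp*, *br* and *Eip74EF* were instead highest in CR40469-KO replicate 1, with *br* at 379.58, 218.93 and 225.96 TPM against 157.82, 269.05 and 164.4 TPM. *ftz-f1*, a nuclear receptor of a later step of the cascade and chosen after its values were seen, was at 8.82, 1.35 and 1.41 TPM against 6.22, 1.7 and 1.47 TPM, so that replicate 1 of either label was high. The sign of its log2FC, 0.069, turned to -0.046 under the median ratio scaling. The part of developmental timing in the values of *m* was not tested.

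*dyl* (dusky-like, FBgn0066365) is known for wing hairs and bristles, where it acts in the pupa when chitin is laid down. It lay between 0.03 and 0.06 TPM in the libraries labelled CR40469-KO and between 0.03 and 0.05 TPM in those labelled control, and was not tested. *cyr* (FBgn0030001), a further ZP domain gene on chromosome X, lay between 0.14 and 0.17 TPM against 0.1 to 0.16 TPM and was not tested either. It is a host of other genes: *CG2116* and *CG10958* lie within it on the opposite strand, share no exonic sequence with it and reached 36.43 and 9.29 TPM. *CG10958* was at 9.29, 6.92 and 6.01 TPM in the libraries labelled CR40469-KO, against 5.43, 4.63 and 5.94 TPM in those labelled control, without overlap but with a limma adjusted p of 0.818.

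*pio* (piopio) and *dp* encode ZP domain proteins that act together in the matrix of the tracheal lumen and in fixing the wing epithelium to cuticle. *pio* (FBgn0020521, chromosome 2R) was at 308.53, 328.54 and 343.27 TPM in the libraries labelled CR40469-KO, against 198.86, 370.17 and 264.18 TPM in those labelled control. Its CR40469-KO libraries differed little and lay inside the control range, with control replicate 1 lowest and control replicate 2 highest. The log2FC was 0.28 (standard error 0.22, 95% confidence interval -0.23 to 0.79). The relative spread of *pio* was 5.34% of the mean in the libraries labelled CR40469-KO, against 31.1% in those labelled control. This held for 6 of the 8 tested genes, all but *m* and *dp*, whereas 53.4% of all tested genes had the larger relative spread in the control libraries.

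*dp* (chromosome 2L) encodes a very large fibrous protein, and its longest annotated transcript of 71382 bp is the longest of all tested genes. It was at 26.71, 5.13 and 5.1 TPM in the libraries labelled CR40469-KO, against 5.59, 6.91 and 3.66 TPM in those labelled control. A single library, CR40469-KO replicate 1, stood 5.22 times above the mean of the other 2 of its label, which were themselves within the control range. The log2FC of 0.70 (standard error 0.55, 95% confidence interval -0.57 to 1.96) rests on this library, and was -0.029 without it. The ratio of *pio* to *dp* was 11.6 in that library and between 35.6 and 72.2 in the other 5.

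The members also varied between libraries of 1 label. Control replicate 1 held the lowest value of the 6 libraries for 6 of the 8 tested genes, all but *tyn* and *dp*, for which control replicate 3 was lowest. The median deviation of the 8 genes from their own means was -0.55 on the log2(TPM + 1) scale in control replicate 1, -0.18 in control replicate 3 and 0.25 in control replicate 2. In the libraries labelled CR40469-KO it was 0.06, 0.14 and 0.19. Control replicate 1 was also the lowest library for 49.4% of all tested genes, with a median deviation of -0.18, so the direction was common and the members differed in its size. Without control replicate 1, the log2FC was 0.056 for *neo* and 0.062 for *pio*, where the median of all tested genes was 0.066. The median of the 7 tested members other than *tyn* was 0.11 in that fit, against 0.33 with all libraries. Without control replicate 2 the median of these 7 was 0.58.

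**Figure D3:**
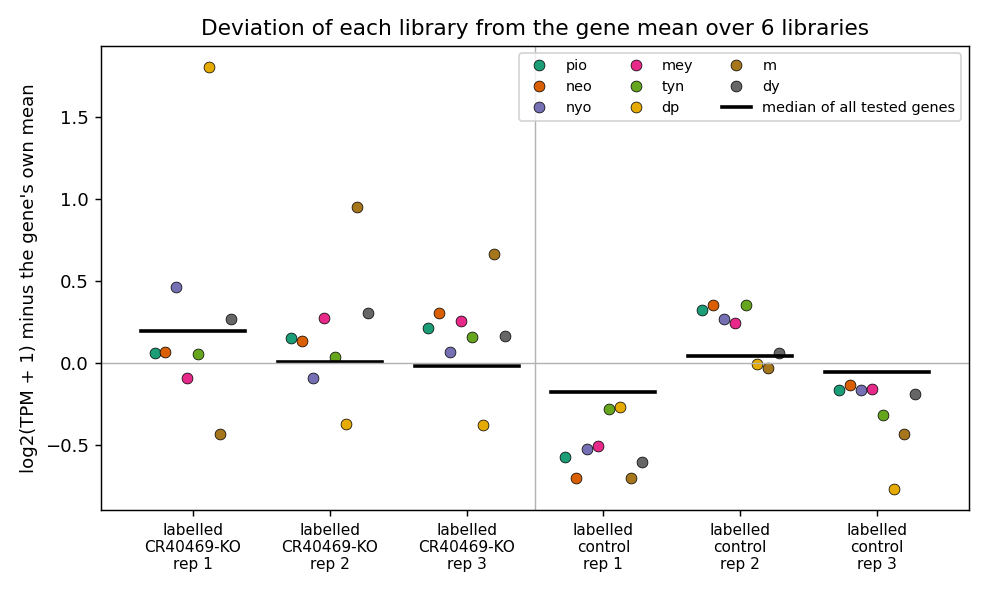
Log2(TPM + 1) of each tested ZP domain gene minus its mean over 6 libraries, by library (points), with the median of all tested genes as a black bar. All 8 points lie under 0 in control replicates 1 and 3; *dp* in CR40469-KO replicate 1 and *m* in CR40469-KO replicates 2 and 3 are the highest points.

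Libraries also differed by transcript length. Each library was set against the other 2 of its label, with genes grouped by their longest annotated transcript. In CR40469-KO replicate 1 the median log2 ratio was -0.15 for genes under 1 kb, 0.33 for genes of 2 to 5 kb and 0.99 for the 131 genes of 10 kb or more. Control replicate 2 ran the same way, from -0.30 through 0.31 to 0.76 over these classes. The other 4 libraries ran the opposite way, with medians between -0.38 and -0.58 at 10 kb or more. In the class of 2 to 5 kb, control replicates 1 to 3 were at -0.26, 0.31 and -0.05, the order of the members' deviations. Replicates 1 to 3 of CR40469-KO were at 0.33, -0.16 and -0.17 in this class, another order than that of the members. In CR40469-KO replicate 1, *dp* had a log2 ratio of 2.18, the value at rank 3 among those 131 genes. In control replicates 1 to 3 it had 0.12, 0.51 and -0.63, at ranks 11, 102 and 126. The class medians there were -0.40, 0.76 and -0.38, so *dp* did not keep to its length class in every library.

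Of the tested ZP domain genes, 7 fall in the class of 2 to 5 kb and *dp* in that of 10 kb or more. The median log2FC between the labels was -0.05 for genes under 1 kb, 0.16 for genes of 2 to 5 kb and 0.42 for genes of 10 kb or more. The value of *tyn*, 0.16, is thus near the median of its class. With a longest transcript of 4526 bp, *tyn* is near the upper end of that class, and the median from 5 to 10 kb was 0.27. The other 6 genes of 2 to 5 kb were above their class median, from 0.28 to 0.78, where the upper quartile of the class was 0.23. In that class, control replicate 1 was the lowest library for 67.6% of the 3140 genes. The cause of the relation to length was not tested.

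**Figure D4:**
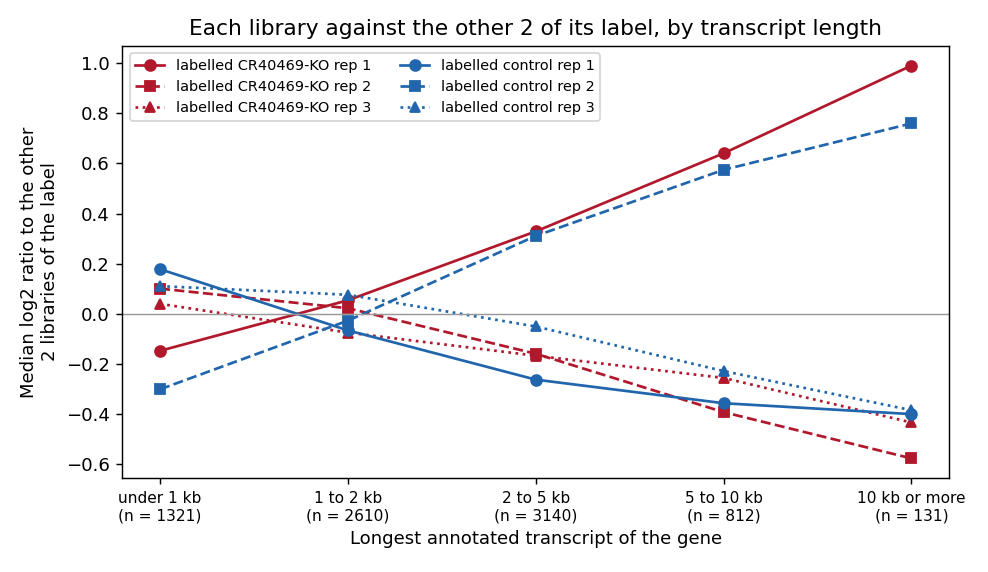
Median log2 ratio of each library to the other 2 of its label, on log2(TPM + 1), for tested genes in 5 classes of longest annotated transcript (n genes under each class). CR40469-KO replicate 1 and control replicate 2 rise with length to 0.99 and 0.76, and the other 4 libraries decline to between -0.38 and -0.58.

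Other genes of the apical matrix were set beside the group. Of 9 further genes assigned to the ZP family, 5 were tested, none was called and none had an unadjusted p under 0.05 in limma. Their median log2FC was 0.11, against 0.13 for all tested genes. *qsm* (quasimodo), a ZP domain gene of light input to the clock, was the most abundant of them at 196.89, 210.01 and 203.16 TPM in the libraries labelled CR40469-KO, against 199.7, 192.1 and 193.67 TPM in those labelled control. It varied little between libraries, and its log2FC of 0.059 (limma adjusted p = 0.866) turned to -0.072 under the median ratio scaling. *CG10005* had the largest value of the list, 0.19 (limma adjusted p = 0.818). *nompA*, *zye*, *CG15020* and *CG17111* stayed at or under 0.09 TPM.

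Of 13 genes of chitin synthesis and apical matrix, 12 were tested and none was called by limma. Their median log2FC was 0.34, and 4 had an unadjusted p under 0.05, all higher in the libraries labelled CR40469-KO, against 3.03% of all tested genes. The list was chosen with earlier results of these data known, so its shares are not an independent test. The labels did not overlap for 3 of the 12, higher in CR40469-KO, against 7.9% of all tested genes. *tnc* (Tenectin), a mucin-like protein of the apical matrix with a longest transcript of 10374 bp, was at 79.25, 95.88 and 90 TPM in these libraries, against 41.81, 71.18 and 48.77 TPM in those labelled control. Its log2FC was 0.73 (standard error 0.21, adjusted p = 0.486). *Gasp*, a chitin-binding protein of trachea and cuticle with a longest transcript of 1683 bp, was at 120.98, 73.05 and 74.78 TPM against 63.38, 41.84 and 38.79 TPM, also without overlap (log2FC 0.88, standard error 0.26, adjusted p = 0.516). *verm*, a chitin deacetylase with the highest mean here, was measured at 294.8, 265.69 and 248.26 TPM against 222.64, 218.98 and 188.42 TPM, without overlap (log2FC 0.36, adjusted p = 0.818). *Np* (Notopleural), a protease known to cleave the ZP domains of Dumpy and Piopio, was at 32.57, 24.22 and 27.03 TPM against 13.15, 26.04 and 18.18 TPM. Its labels overlapped, as those of *pio* and *dp* did, and its log2FC was 0.56 (adjusted p = 0.818). Under the median ratio scaling, the unadjusted limma p was 0.122 for *verm* and 0.0530 for *Np*, against 0.0154 for *tnc* and 0.0208 for *Gasp*.

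The list of the Shavenbaby programme and of actin regulators of hairs matched 8 of 9 symbols, since *tal* is split into 4 genes of 1 locus. Of these, 5 were tested, none was called, and the median log2FC was 0.33. *mwh*, which limits hair number per wing cell, was the only one of the 5 with an unadjusted p under 0.05 (3.03% of all tested genes were higher at that p) and was at 2.75, 2.16 and 2.45 TPM against 1.4, 1.8 and 1.01 TPM (log2FC 0.53, standard error 0.17, limma adjusted p = 0.618). *sn* (singed), a fascin of bristles and hairs, was the most abundant with a log2FC of 0.13. *ovo* itself overlapped between the labels, at 52.22, 41.56 and 36.4 TPM against 27.53, 51.49 and 27.58 TPM. Of 14 genes of ecdysone response and pupal timing, 13 were tested, none was called and none had an unadjusted p under 0.05, with a median log2FC of 0.21. *ImpE2*, an ecdysone-inducible apical protein, was the most abundant at 2170.02, 3208.08 and 3215.06 TPM against 1540.84, 3645.78 and 2592.6 TPM. Like *pio* and *neo*, it was lowest in control replicate 1 and highest in control replicate 2.

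Markers of the disc and of other cells were read in the same fit. All 5 disc epithelium markers were tested, with summed levels of 416 to 547 TPM in the libraries labelled CR40469-KO and 327 to 530 TPM in those labelled control. Tracheal markers, which matter because *pio*, *dp* and *tyn* also act in trachea, summed to 20.7 to 26.1 TPM against 17.2 to 25.9 TPM, and all 3 were tested. The 4 myoblast markers summed to 62.5 to 77.6 TPM against 48.4 to 74.8 TPM. Tracheal and muscle precursor RNA was thus present in every library. Haemocyte markers summed to at most 5.91 TPM, and salivary gland markers did not exceed 0.4 TPM each.

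Of the fat body markers, 4 of 5 were tested and 3 of these were lower in every library labelled CR40469-KO, as were 2.56% of all tested genes, with sums of 6.26 to 9.7 TPM against 9.53 to 16.3 TPM. Their median log2FC was -0.87. Of 3 neuronal and glial markers, only *elav* was tested, with a log2FC of 0.39. The male dosage compensation RNAs *roX1* and *roX2* summed to 214 to 355 TPM against 290 to 473 TPM, and *roX2* had a log2FC of -0.73. *tyn*, *m*, *dy* and *cyr* lie on chromosome X, where these RNAs act in males. No gene of these lists was called by limma, and the part of the mix of cells or sexes in the ZP domain genes was not tested.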

How the data were processed

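The deposited values are TPM per gene, written to 2 decimals, which the authors obtained by aligning paired reads to dm6 with STAR 2.4.0j in grape-nf and quantifying FlyBase genes with RSEM 1.2.21. TPM add up to the same total in every library, so a few abundant genes can shift all others, and reads of overlapping genes were divided by RSEM. Positions and transcript lengths came from Ensembl's BDGP6 annotation, which has dm6 coordinates; 53 of 16455 identifiers were not in it.

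Fits used limma 3.58.1 in R 4.3.3 (lmFit and eBayes) on log2(TPM + 1), with the label as only term, over the 8051 genes that reached 1 TPM in any library, after a test on simulated data. Fold changes are on this scale and understate those of low genes. Exact permutation tests (scipy 1.17.1) compared mean TPM. The study's own test, DESeq2 with undamaged discs as a further factor, needs counts and samples not used here.

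Alternatives were a pseudocount of 0.1, no filter or 1 TPM in 3 libraries, median ratio scaling, a mean-variance trend, a replicate block, the adjusted p alone, and each library left out. The members and lists were chosen with earlier results of these data known. Named were all members, expressed genes overlapping them, genes most like *tyn*, and from each list the genes with the largest change or highest level; from marker lists only sums and selected genes are given. *ovo*, *tnc*, *Np*, *ftz-f1*, *ImpE3*, *EcR*, *usp*, *br* and *Eip74EF* fall outside this rule and were picked with their values known. 1 expressed gene that overlaps *tyn* is not reported here. No sequences are shown.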

Additional observations from a re-analysis of the deposited data

How the results depend on the processing

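In all 14 alternative settings, 0 of the ZP domain genes were called by limma, and the log2 fold change of *tyn* stayed positive, between 0.037 (libraries scaled by their median ratio) and 0.38 (without control replicate 2). Each replicate left out in turn gave 0.046 to 0.38 for *tyn*. Of these fits, only that without control replicate 2 had an unadjusted p under 0.05 for *tyn* (0.0222 in limma, adjusted p = 0.376). The median of the other 7 tested members, 0.33, was 0.11 without control replicate 1 and 0.58 without control replicate 2. The median of all tested genes, 0.13, was 0.066 without control replicate 1. Leaving out control replicate 1, *dy* was at 0.31, and *m* ranged from 0.50 to 1.2 with 1 library left out. The sign turned for *dp* without CR40469-KO replicate 1 (-0.029; without each library in turn it was at most 1.06) and for *nyo* without replicate 1 of both labels (-0.062), the alternative added after seeing the data. It also turned for *qsm* (-0.072) and *ftz-f1* (-0.046) under the median ratio scaling, which moved the median of all genes to 0.0014. Without replicate 1 of both labels, *ftz-f1* was at -0.12. Leaving out 1 library at a time gave between -0.61 and 0.56 for *ftz-f1* and between -0.13 and 0.50 for *ImpE2*; *ftz-f1* was at -0.15 without control replicate 2 and at -0.21 without control replicate 3. *CR40469* kept its direction in all settings (2.11 to 2.65), but its limma adjusted p ranged from 8.45e-04 to 0.355, and it was not called in 6 of the 14 settings.

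The count of called genes, 18, was 2 with no filter on low values, 42 without replicate 1 of both labels and between 6 (without control replicate 1) and 35 (without CR40469-KO replicate 1) with 1 library left out; it was 11 without CR40469-KO replicate 3 and 9 without control replicate 3. With the replicate number as a block it was 31. The labels do not say whether equal replicate numbers pair the libraries. Same-numbered libraries had correlations of deviations of -0.026, -0.353 and 0.160, and differently numbered ones ran from -0.388 to 0.472. These values cannot settle the pairing. The causes of the shifts in the count were not tested. TPM keep no depth and the study's mapped read numbers were not used, so no counting error is given for *dyl* and *cyr*.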
